A study of Mus musculus with 2 samples.

Results

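The genes described here are *Nfe2l2*, which encodes the transcription factor NRF2, 7 of its classical targets (*Hmox1*, *Nqo1*, *Gclc*, *Gclm*, *Txnrd1*, *Srxn1* and *Slc7a11*) and the metallothionein genes *Mt1* and *Mt2*. They were chosen by name, as every probe on the arrays whose accession belongs to one of these 10 genes. They had 11 probes, 2 of them for *Hmox1*, and 9 of the 10 genes were bright enough to be tested, among 24031 tested genes in all.

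The cells were mouse embryonic stem cells (mESCs) of the genotype AIMP3f/f;cre-ERT2, derived as clones from blastocysts. Both groups carried the loxP-flanked AIMP3 alleles and the tamoxifen-inducible Cre recombinase, and both were cultured for 4 days with LIF, the cytokine that holds mESCs in self-renewal. AIMP3-depleted cells received 2 μM tamoxifen, named in the methods as its active form 4-hydroxytamoxifen (4-OHT), and control cells received ethanol. AIMP3-depleted RNA from 2 replicates was labelled with Cy5, 1 replicate per array, and RNA of 2 control replicates was pooled and labelled with Cy3 for both arrays. Both arrays lay on 1 slide. The control was therefore 1 sample read on both arrays, and the spread between control cultures was not measured. The dyes were not swapped, and all arrays used here came from cells with Cre, so AIMP3 loss, the drug, Cre activity and a dye effect cannot be told apart. The number of clones, the promoter that drives Cre-ERT2 and whether the replicates were separate cultures are not given in the sources used here, so that p-values may measure a spread that is partly technical. The growth medium of both groups contained β-mercaptoethanol, a thiol reductant. The cells were usually kept on feeder layers of mouse embryonic fibroblasts (MEFs), and the methods describe MEF-conditioned medium for incubations with drugs.

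NRF2 is the main activator of the cellular defence against oxidants and electrophiles. In unstressed cells the adaptor KEAP1 binds NRF2 and hands it to a CUL3 ubiquitin ligase for degradation, so that its activity is set largely by protein stability and less by the level of its mRNA. When the cysteines of KEAP1 are modified, NRF2 accumulates, pairs with a small MAF protein and binds antioxidant response elements (AREs) in its target genes, where BACH1 can act as a repressor. Metallothioneins are small cysteine-rich proteins that bind zinc and copper, and their genes are activated by the zinc sensor MTF1 through metal response elements (MREs), as well as by oxidants and glucocorticoids.

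The promoters show which of these elements can be read next to the genes. RefSeq windows of the 250 bases before a start site (assembly GRCm38.p6) were found for 8 of the 10 genes, with *Hmox1* and *Gclc* not among them. The windows were searched on both strands for TGACNNNGC, the ARE core, and for TGCACNC and TGCGCNC, the MRE core, where N is any base and a match to one motif may overlap another. Windows are shown for *Srxn1*, the target with a window whose ratio passed the threshold below, for *Gclm*, the target with the lowest ratio, and for *Mt2*, the metallothionein with most matches. Capitals mark the matches, and each window is written 5′ to 3′ on the strand of its gene.

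Srxn1, chr2:152105274-152105523, plus strand: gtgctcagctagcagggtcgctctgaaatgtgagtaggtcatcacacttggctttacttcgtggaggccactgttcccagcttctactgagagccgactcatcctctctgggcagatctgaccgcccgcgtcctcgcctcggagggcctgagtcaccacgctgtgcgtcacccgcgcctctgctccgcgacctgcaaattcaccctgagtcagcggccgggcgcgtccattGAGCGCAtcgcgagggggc

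Gclm, chr3:122245307-122245556, plus strand: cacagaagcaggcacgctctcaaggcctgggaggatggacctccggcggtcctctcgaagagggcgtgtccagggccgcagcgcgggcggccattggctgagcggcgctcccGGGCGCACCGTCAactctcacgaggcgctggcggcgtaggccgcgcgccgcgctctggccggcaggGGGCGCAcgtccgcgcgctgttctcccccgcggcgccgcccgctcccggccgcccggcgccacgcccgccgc

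Mt2, chr8:94172368-94172617, plus strand: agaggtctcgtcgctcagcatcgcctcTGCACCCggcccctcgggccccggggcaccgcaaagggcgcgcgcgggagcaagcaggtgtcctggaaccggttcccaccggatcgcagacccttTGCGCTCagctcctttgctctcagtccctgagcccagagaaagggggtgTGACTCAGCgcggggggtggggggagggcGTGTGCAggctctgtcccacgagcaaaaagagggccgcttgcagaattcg

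The ARE core was found in the windows of *Nfe2l2*, *Mt2* and *Gclm* and in 1 of 3 windows of *Txnrd1*, and 10.2% of all 32851 mouse windows held it. An MRE core was found in the windows of *Mt1*, *Mt2*, *Gclm* and *Srxn1*, against 21.4% of all windows. The *Mt2* window held 3 MRE cores and 1 ARE core, and 5.17% of all windows held at least 2 MRE cores. In *Gclm*, the ARE core and 1 of the 2 MRE cores overlapped, as the longer stretch of capitals shows. The windows of *Nqo1* and *Slc7a11* held no match, and *Srxn1* held no ARE core. A match is a description of the letters, and a missing match says only that these letters are not in this window. Among the genes with an ARE core, the ratios given below ran from that of *Gclm* to that of *Mt2*, and among those with an MRE core, from that of *Gclm* to that of *Srxn1*.

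*Eef1e1*, the gene that encodes AIMP3, checks the labels. Its log2 ratio of AIMP3-depleted over control was -0.90 on both arrays (-0.90 ± 0.0067, SD, n = 2), with an adjusted p of 5.02e-05 by limma. Whether its probe lies in the deleted exons is not given in the sources used here. The methods describe the normalized ratio as control over test, so the direction used here, AIMP3-depleted over control, is the opposite of that wording, and a positive value means more RNA in AIMP3-depleted cells. Between 59.26% and 60.6% of spots were well above background in a channel, and the median signal was 2.683 to 3.305 times its background. No spot was saturated.

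*Hmox1* and *Srxn1* were higher in AIMP3-depleted cells by 1.57-fold each. They were the only ones of the 9 tested genes past the threshold of the paper, over 1.5-fold with p under 0.05. The p is unadjusted here, and the paper does not say whether its own was adjusted. *Nqo1*, *Mt1* and *Mt2* lay between 1.16-fold and 1.21-fold higher, *Nfe2l2*, *Txnrd1* and *Gclc* were within 1.08-fold of the control, and *Gclm* was 1.20-fold lower. Of all tested genes, 5.52% passed the same threshold as higher and 0.791% as lower; these are the shares beside which 2 of 9 genes higher and 0 of 9 lower are to be read. Without the fold threshold, at an adjusted p under 0.05 by limma, 5 of the 9 genes were higher (*Hmox1*, *Srxn1*, *Nqo1*, *Mt1* and *Mt2*) and 1 was lower (*Gclm*), where 30.6% of all tested genes were higher and 23.7% were lower. Of these, *Nqo1*, *Mt1* and *Mt2* were lost with the signals as processed by the scanner software (adjusted p 0.0735, 0.157 and 0.627 by limma) and in the deposited table (0.0574, 0.0828 and 0.304), while *Gclm* was lost with median centring (0.374), where *Nfe2l2*, *Gclc* and *Txnrd1* were gained as higher. Median centring put the median of all tested genes at 0.18, and the test is against 0, not against that median. With the spread taken from each gene's 2 arrays alone, as in the methods' test, none of the 6 had an adjusted p under 0.05 (0.199 for *Hmox1*, 0.195 for *Srxn1* and 0.208 for *Gclm*). The median log2 ratio of the 9 genes was 0.21, 0.18 for replicate 1 and 0.24 for replicate 2, and that of all tested genes was 0.015. With the processed signals the median of the 9 genes was 0.083 (all tested genes -0.029). It was 0.12 in the deposited table (all tested genes 0.011) and 0.43 with median centring (all tested genes 0.18). These shares and medians are descriptions, since the genes were chosen with earlier results of these data known.

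**Figure D1:**
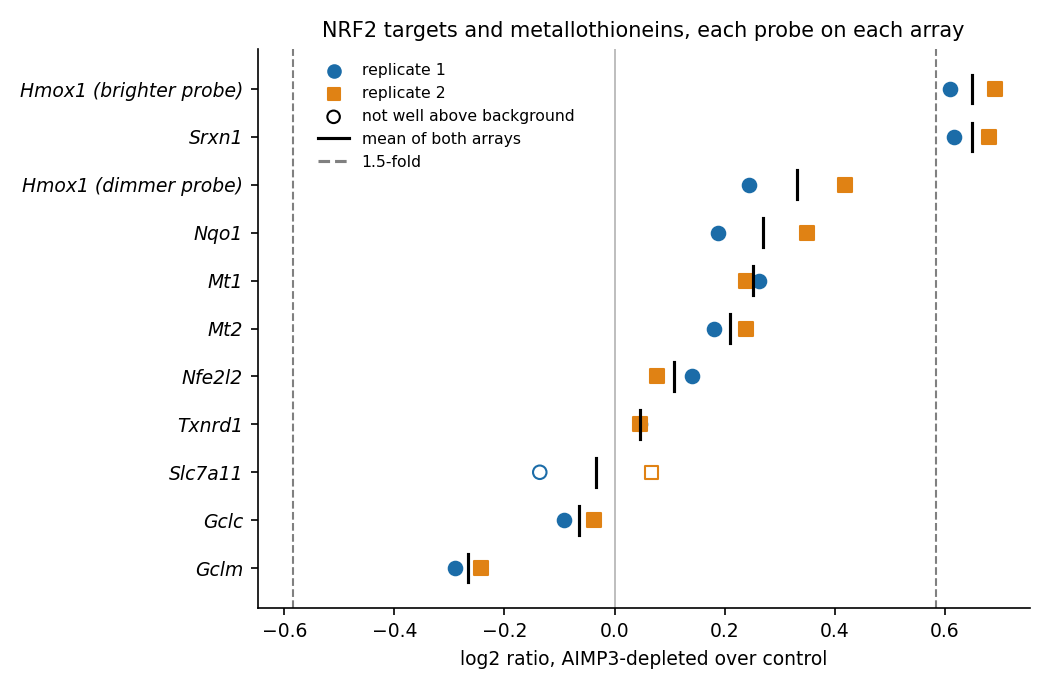
Log2 ratio of AIMP3-depleted over control for each of the 11 probes on each array (circles for replicate 1, squares for replicate 2, black bars for the mean of both arrays, dashed lines at 1.5-fold). The brighter *Hmox1* probe and *Srxn1* lie beyond the dashed line on both arrays, *Gclm* lies lowest, and *Slc7a11* is drawn open because its spots were not well above background.

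*Hmox1* encodes haem oxygenase 1, which breaks haem down to biliverdin, iron and carbon monoxide. Its brighter probe (A_51_P263965) read 12.52 and 12.60 for the control pool on the arrays of replicates 1 and 2, and 13.13 and 13.29 for AIMP3-depleted RNA, as log2 of the normalized intensity in each channel. Both readings of depleted RNA lay above both readings of the pool. The log2 ratio was 0.61 and 0.69 (0.65 ± 0.057, SD, n = 2; 95% interval 0.54 to 0.76), with an adjusted p of 0.00014 by limma, and 4.40% of all tested genes had a higher ratio. The dimmer probe (A_55_P2029687) gave the same direction with a smaller size, 0.24 and 0.42 (0.33 ± 0.12, SD, n = 2), with an adjusted p of 0.00442 by limma over all tested probes. The 2 probes of *Hmox1* differed by more than the spread between the arrays, and their mean of 0.49 did not reach the fold threshold, so the size of the *Hmox1* difference depended on the probe while its direction did not.

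*Srxn1* encodes sulfiredoxin, which repairs over-oxidized peroxiredoxins. It had 1 probe, with log2 intensities of 11.81 and 11.69 for the control pool and 12.42 and 12.38 for AIMP3-depleted RNA on the arrays of replicates 1 and 2. The depleted readings lay above those of the pool on both arrays, as for *Hmox1*. The log2 ratio was 0.62 and 0.68 (0.65 ± 0.045, SD, n = 2; 95% interval 0.54 to 0.76), with an adjusted p of 0.000132 by limma, and 4.42% of all tested genes had a higher ratio. *Hmox1* and *Srxn1* passed the threshold under each of the 5 ways of normalizing the intensities, between 0.63 and 0.89 for *Hmox1* and between 0.65 and 0.88 for *Srxn1*. These 5 ways are not independent. The deposited table equalled the processed signals plus a constant within 0.01 for 99.8% of probes. Loess with and without background subtraction gave *Hmox1* ratios of 0.650 and 0.651.

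*Nqo1* encodes the quinone reductase that is often used as a readout of NRF2. Its probe read 8.94 and 8.95 for the control pool and 9.13 and 9.30 for AIMP3-depleted RNA. The log2 ratio was 0.19 and 0.35 (0.27 ± 0.11, SD, n = 2; 95% interval 0.14 to 0.40), the widest spread among the probes that stand for the 9 tested genes. The adjusted p was 0.00684 by limma, but the 95% interval ended below 1.5-fold.

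*Gclc* and *Gclm* encode the catalytic and the modifier subunit of glutamate-cysteine ligase, the rate-limiting enzyme of glutathione synthesis. *Gclm* read 10.36 and 10.34 for the control pool and 10.07 and 10.10 for AIMP3-depleted RNA, so that both depleted readings lay below both readings of the pool. Its log2 ratio was -0.29 and -0.24 (-0.27 ± 0.034, SD, n = 2; 95% interval -0.37 to -0.16), with an adjusted p of 0.00328 by limma, and 89.7% of all tested genes had a higher ratio. *Gclc* read 13.42 and 13.32 for the control pool and 13.33 and 13.28 for AIMP3-depleted RNA. Its log2 ratio was -0.091 and -0.038 (-0.064 ± 0.038, SD, n = 2; 95% interval -0.17 to 0.045), and the adjusted p of 0.266 by limma did not separate it from 0. After loess the ratios of both subunits lay on the other side of 0 from those of *Hmox1* and *Srxn1*, and neither passed the fold threshold. The sign of *Gclc* depended on the normalization, since it was 0.19 when each array was only centred on its median, a setting that put the median of all genes at 0.18.

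*Txnrd1* encodes the cytosolic thioredoxin reductase, a selenoenzyme that keeps thioredoxin reduced. Its probe read 14.60 and 14.59 for the control pool and 14.64 and 14.63 for AIMP3-depleted RNA. The log2 ratio was 0.047 and 0.046 (0.047 ± 0.00057, SD, n = 2; 95% interval -0.059 to 0.15), with an adjusted p of 0.400 by limma, and the interval ended well inside 1.5-fold on both sides.

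*Slc7a11* encodes xCT, the cystine importer that supplies cysteine for glutathione. Its single probe was not well above background in either channel on either array, with a spot intensity of 73 and 66 in the control channel over local backgrounds of 48 and 47, and of 84 and 80 in the depleted channel over 68 and 63. No fold is given, and *Slc7a11* was not tested. The *Nfe2l2* mRNA itself read 12.64 and 12.71 for the control pool and 12.79 and 12.79 for AIMP3-depleted RNA. Its log2 ratio was 0.14 and 0.076 (0.11 ± 0.046, SD, n = 2; 95% interval -0.0016 to 0.22), with an adjusted p of 0.0860 by limma. These arrays measured mRNA, and the NRF2 protein, at which the pathway is mainly controlled, was not measured.

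*Mt1* and *Mt2* encode the widely expressed metallothioneins. *Mt1* read 16.67 and 16.59 for the control pool and 16.93 and 16.82 for AIMP3-depleted RNA, a log2 ratio of 0.26 and 0.24 (0.25 ± 0.016, SD, n = 2; 95% interval 0.14 to 0.36) with an adjusted p of 0.00391 by limma. *Mt2* read 17.12 and 16.95 for the pool and 17.30 and 17.19 for AIMP3-depleted RNA, a log2 ratio of 0.18 and 0.24 (0.21 ± 0.041, SD, n = 2; 95% interval 0.10 to 0.32) with an adjusted p of 0.00887 by limma. Depleted readings lay above those of the pool on each array for both genes. The ratios of *Mt1* and *Mt2* differed from each other by less than either 95% interval spans.

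Both metallothionein probes lay at the bright end of the arrays, where *Mt1* ranked 424 and *Mt2* 193 of 24031 in intensity and where the ratios of all genes curved upwards. The median log2 ratio of the 500 brightest genes was 0.27 after loess, beside 0.25 for *Mt1* and 0.21 for *Mt2*. With the signals as the scanner software had processed them, the 500 brightest genes had a median of 0.058, and *Mt1* and *Mt2* came to 0.083 and 0.030, with *Mt2* at -0.023 for replicate 1. With median centring alone the brightest genes had a median of 0.79, and *Mt1* and *Mt2* came to 0.74 and 0.73 and passed the fold threshold. Across these settings the metallothionein ratios moved with the median of the brightest genes. The cause was not tested, nor was whether *Mt1* and *Mt2* differ between the groups apart from that.

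**Figure D2:**
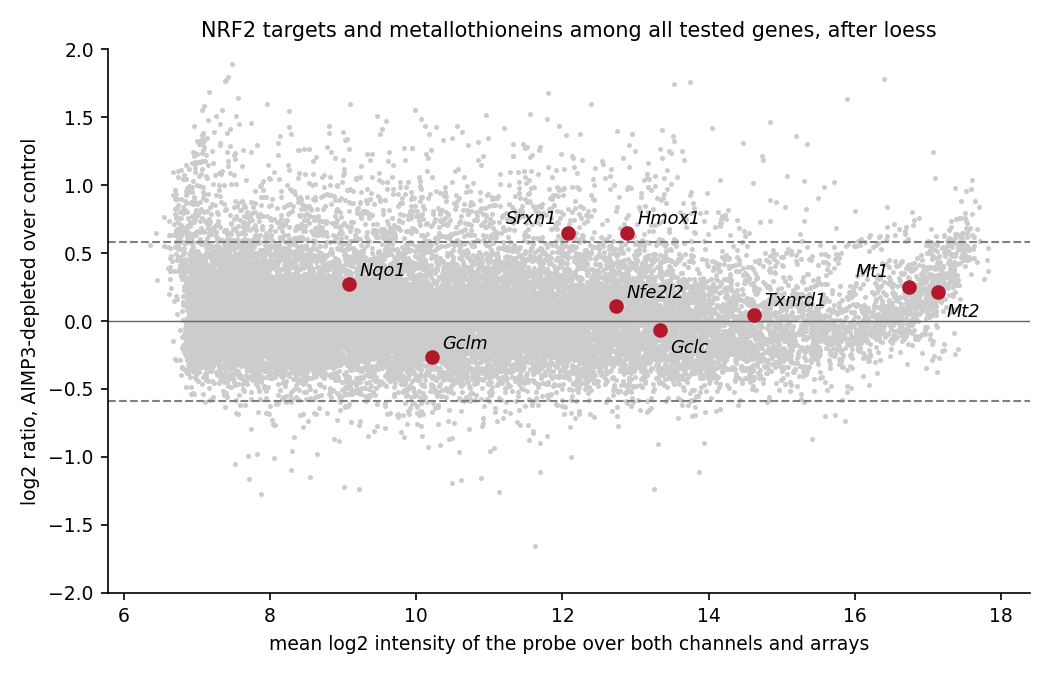
Log2 ratio of AIMP3-depleted over control against the mean log2 intensity of the probe for all 24031 tested genes (grey) and the 9 tested NRF2 targets and metallothioneins (red), with dashed lines at 1.5-fold. *Hmox1* and *Srxn1* lie just above the upper line in the middle of the intensity range, while *Mt1* and *Mt2* lie within the bright end, where the grey points bend upwards.

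The normalization moved the other genes less. *Nqo1* ranged from 0.26 to 0.43, *Nfe2l2* from 0.073 to 0.35 and *Txnrd1* from 0.044 to 0.39 over 8 settings, with the upper end of each range under median centring. *Gclm* was negative in all 8 settings, from -0.35 with the processed signals to -0.072 with median centring.

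**Figure D3:**
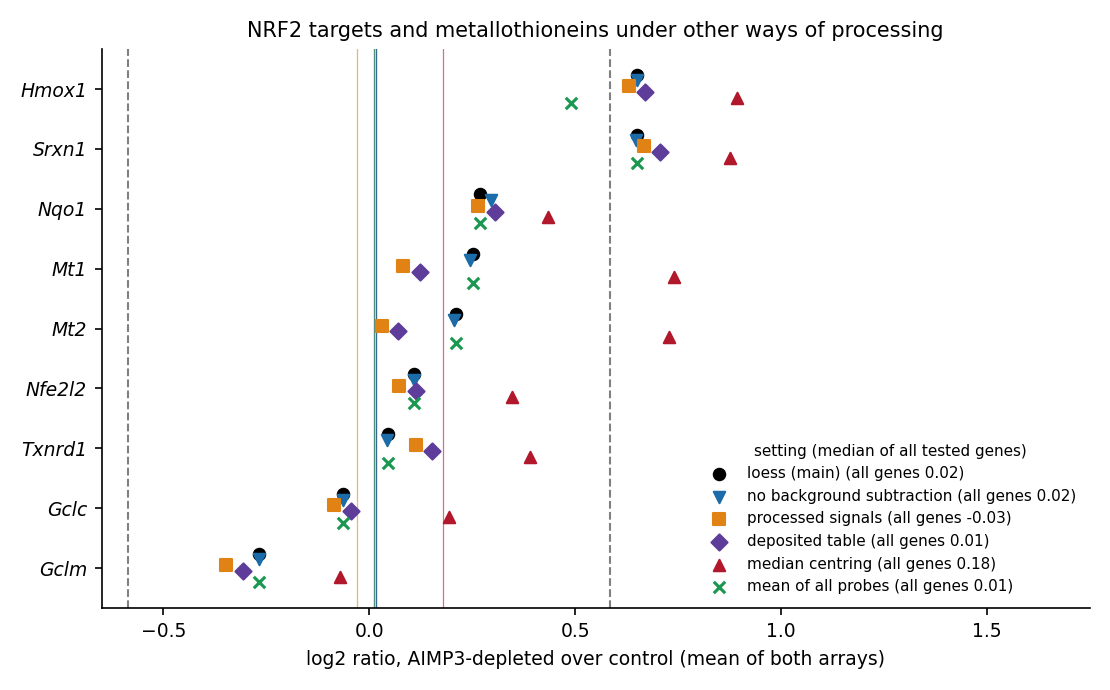
Mean log2 ratio of AIMP3-depleted over control for the 9 tested genes under 6 ways of processing the intensities (1 symbol each), with thin vertical lines in the same colours at the median of all tested genes under each, and dashed lines at 1.5-fold. *Mt1* and *Mt2* spread most, from 0.083 and 0.030 to 0.74 and 0.73, and median centring moves every gene to the right along with the median of all genes.

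The other genes of the pathway were taken from 7 lists with 92 genes, of which 89 were tested. Of these 89 genes, 7 (7.87%) passed the threshold as higher and 1 (1.12%) as lower, near the 5.52% and 0.791% of all tested genes. A positive ratio was found for 51 (57.3%), against 52.7% of all tested genes, and the median log2 ratio was 0.065. At an adjusted p under 0.05 by limma at any fold, 32 were higher and 22 lower (36% and 24.7%), beside 30.6% and 23.7% of all tested genes. The list values below are those after loess. With median centring the medians of the 7 lists ran from 0.22 (NADPH supply) to 0.49 (NRF2 control, with 4 genes higher). The median of all tested genes was then 0.18.

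Of the 11 genes listed for the control of NRF2, a list that also holds relatives of NRF2, 2 passed the threshold as higher and 0 as lower, with a median of 0.19. *Sqstm1* encodes the autophagy receptor p62, which can hold KEAP1 away from NRF2 and is itself an NRF2 target, and its log2 ratio was 0.62 and 0.64 (0.63 ± 0.017, SD, n = 2). *Bach2*, which encodes a repressor related to BACH1 and known mainly from lymphocytes, was at 0.61 and 0.60 (0.60 ± 0.005, SD, n = 2), while its other probe, at 0.12, was too dim to be tested. Both passed under 4 of the 5 normalizations. *Keap1* was at 0.38 and *Bach1* at 0.21, and the small MAF genes were at 0.40 (*Maff*), 0.19 (*Mafk*) and 0.16 (*Mafg*), all below the fold threshold, and they are named for their role after their values were seen. *Nfe2l1*, which encodes a relative of NRF2 that controls proteasome genes, had the lowest ratio of the list, -0.23.

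Of the 22 tested genes for glutathione use and conjugation, 2 passed as higher and 1 as lower, with a median of -0.034. *Gsto1*, an omega-class glutathione transferase, was at 0.74 and 0.87 (0.80 ± 0.089, SD, n = 2), and *Gpx1*, the cytosolic glutathione peroxidase, was at 0.55 and 0.63 (0.59 ± 0.054, SD, n = 2). *Gstt1*, a theta-class glutathione transferase, was lower, at -0.66 and -0.58 (-0.62 ± 0.056, SD, n = 2). *Gsto1* and *Gpx1* passed under all 5 normalizations and *Gstt1* under 4 of 5.

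Of the 16 genes for thioredoxins, peroxiredoxins and peroxide removal, 1 passed as higher and 0 as lower, with a median of -0.0049. The gene was *Glrx2*, a mitochondrial glutaredoxin, at 0.99 and 0.77 (0.88 ± 0.15, SD, n = 2) on its brightest probe. Its other probes were at 0.10 and 0.082, and the bright probe passed under 3 of 5 normalizations, so *Glrx2* is uncertain. *Txnip*, the inhibitor of thioredoxin, had the lowest ratio of the list, -0.46. None of the peroxiredoxins, some of which sulfiredoxin repairs, passed the threshold. *Prdx4* (-0.42), *Prdx1* (-0.22) and *Prdx2* (-0.18) were lower at an adjusted p under 0.05 by limma (0.000511, 0.00631 and 0.0150). *Prdx3*, *Prdx5* and *Prdx6* were not separated from 0 on their brightest probes. Over the 5 normalizations the highest values of *Prdx4*, *Prdx1* and *Prdx2* were -0.15, 0.20 and 0.16.

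Of the 6 genes for NADPH supply, 1 passed as higher and 0 as lower, with a median of -0.054. *Me1*, the cytosolic malic enzyme and an NRF2 target, was at 0.72 and 0.88 (0.80 ± 0.11, SD, n = 2), and its other probes were at 0.69 and 0.75, so that all its probes were past 1.5-fold. *Me1* passed under all 5 normalizations. *Tkt*, the transketolase of the pentose phosphate pathway and also known as an NRF2 target, was at the other end of the list with -0.57, short of the fold threshold.

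Of the 9 genes for haem and iron, 1 passed as higher and 0 as lower, with a median of 0.098. *Ftl1*, the ferritin light chain that stores iron, was at 0.78 and 0.69 (0.74 ± 0.069, SD, n = 2), but its other probe was at 0.053, it passed under 3 of 5 normalizations and the gene has near-identical copies in the genome, so its value is uncertain. *Blvrb*, a biliverdin reductase that acts downstream of haem oxygenase, had the lowest ratio of the list, -0.45. Of the 9 tested genes for quinone and aldehyde detoxification 0 passed in either direction, with a median of 0.15 and a range from -0.16 (*Akr1b3*, an aldose reductase) to 0.53 (*Ephx1*, the microsomal epoxide hydrolase, at 0.20 on its other probe).

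Of the 16 tested genes for zinc handling, which include the metallothioneins *Mt3* and *Mt4*, 0 passed in either direction, with a median of 0.079. They ranged from -0.30 for *Slc30a1*, the zinc exporter of the plasma membrane and a target of MTF1, to 0.42 for *Slc39a8*, a zinc and manganese importer. *Mtf1* itself was at 0.29 on its brightest probe, 0.028 on another tested probe and -0.046 on one too dim to be tested, and *Mt3* and *Mt4*, which are known mainly from brain and from squamous epithelium, were at -0.013 and 0.021. These 3 genes are named after their values were seen.

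**Figure D4:**
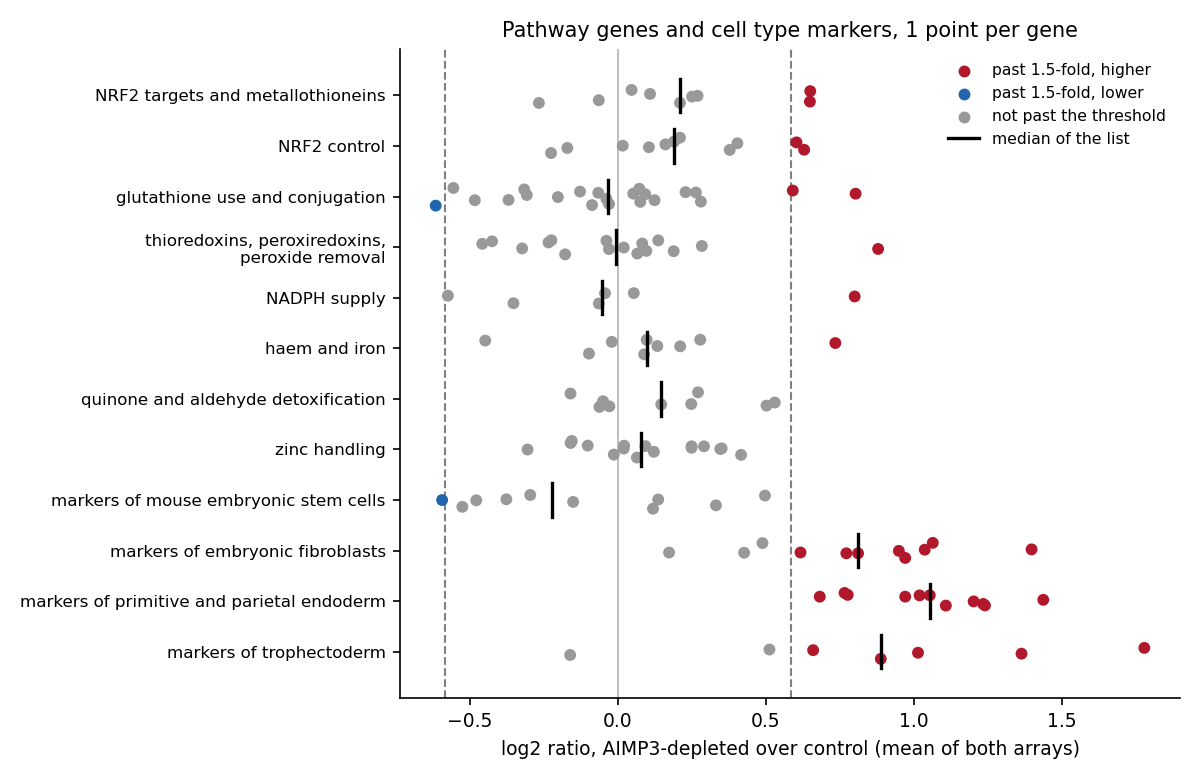
Mean log2 ratio of AIMP3-depleted over control for each tested gene of the NRF2 targets and metallothioneins, the 7 pathway lists and 4 lists of cell type markers (1 point per gene, red or blue where past the threshold, black bars at the median of each list, dashed lines at 1.5-fold). After loess the pathway lists have medians between -0.054 and 0.19, whereas the 3 lists of markers of other cell types have medians of 0.81, 1.05 and 0.89.

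Markers of other cell types differed more than any of the pathway lists. Of 11 tested markers of embryonic fibroblasts 8 passed as higher and 0 as lower (median 0.81), and *Lum* was not tested. All 11 markers of primitive and parietal endoderm passed as higher (median 1.05), as did 5 of 7 tested markers of trophectoderm (median 0.89), where *Elf5* was not tested. *Pdgfra* (0.97) stands in both the fibroblast and the endoderm list. Of all tested genes, 5.52% passed as higher and 0.791% as lower. Of 10 mESC markers 0 passed as higher and 1, *Tdgf1*, as lower (median -0.22), where *Tdgf1* passed under 2 of the 5 normalizations, and with median centring 1 passed as higher and 0 as lower (median 0.070). The summed normalized intensity of the fibroblast markers was 97963 to 98584 in the control readings and 145515 to 148972 in AIMP3-depleted RNA, and that of the endoderm markers was 183206 to 189932 and 392586 to 392900. For trophectoderm the sums were 58755 to 60744 and 182381 to 194473, and for mESC markers 267055 to 269200 and 295437 to 302817. The mESC sum ran against the median of its list through 1 bright probe, *Dppa5a* (log2 ratio 0.50), and without it the sum was 131128 to 134173 in the control readings and 107309 to 108384 in AIMP3-depleted RNA. Every tested marker was well above background in both channels on both arrays, so mESC markers were detected in both groups, as the labels have it, and so were markers of the other types. In such bulk RNA, fewer cells of a type and less RNA per cell cannot be told apart. The tested fibroblast and endoderm markers, and the tested trophectoderm markers other than *Eomes* (-0.16), had positive ratios like *Hmox1* and *Srxn1*, and their part in the *Hmox1* and *Srxn1* ratios was not tested.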

How the data were processed

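The authors deposited scanner output for both two-colour Agilent arrays, 1 per AIMP3-depleted replicate, with 62976 spots each. The intensity of every spot and of the background around it was deposited as the authors' scanner read it, not normalized, with flags for outliers and for signal above background. A log10 ratio and processed signals were deposited by the authors too, after Feature Extraction (11.5.1.1 per the file headers, where the methods give a different one) had subtracted background and normalized the dyes. The authors' values with log2 ratios were made with GeneSpring per the methods and equalled the log2 ratio of processed Cy5 over Cy3 plus a constant (0.0404 and 0.0395) within 0.01 for 99.8% of probes. Their columns had medians of 0.0909 and 0.111, so scale and direction are known and the reason for the constant is not.

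Here, median spot signals were corrected with limma's normexp (offset 50) on the median local background, since mean signals, which had been planned, were not found in the files. Arrays were normalized by loess with control spots at weight 0, without the 215 and 227 outlier spots, and repeated spots were averaged per probe. The test took 33022 of 55681 probes, those with signal well above background on both arrays in 1 channel or more, and the brightest of a gene stood for it. Per-channel levels were made with Aquantile after loess. Accessions were named through RefSeq (GRCm38.p6), where 14983 of the tested genes matched and the others kept the name in the file. The array was designed on another build, so no coordinates of probes are given. The mean log2 ratio was tested against 0 with lmFit and eBayes (1 residual and 5.25 prior degrees of freedom), with Benjamini-Hochberg adjustment over all tested genes. A gene passed when over 1.5-fold with an unadjusted p under 0.05. The test and the threshold were checked on simulated ratios with independent errors on each array. These had no dye effect, no trend with intensity and no shared control pool, so the check does not cover those limits. Precision is limited by having 2 arrays. The genes, lists and tests were chosen with earlier results of these data known. Genes named are the 10, the list members past the threshold (up to 3 per list), genes at the ends of a list and *Eef1e1*. Named after their values were seen were the markers that were not tested, *Fn1*, *Pdgfra*, the peroxiredoxins and the genes said to be chosen later. Protein sequences were not used here. R (4.3.3) was used with limma (3.58.1) and data.table (1.17.8).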

Additional observations from a re-analysis of the deposited data

How the results depend on the processing

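Of the 9 tested genes, 2 (*Hmox1* and *Srxn1*) passed as higher and 0 as lower. The same 2 passed without background subtraction, with the processed signals, with no filter or a stricter filter on dim probes, in the deposited table and with the methods' t-test, and their ratios also stayed over 1.5-fold without either replicate, where 1 array allows no test. With median centring 4 passed as higher (*Mt1* and *Mt2* were added) and *Gclc* changed sign to 0.19. With the mean of all probes of a gene 1 passed (*Srxn1*), and with a 2-fold threshold 0 passed. At an adjusted p under 0.05 by limma at any fold, 5 were higher and 1 lower. As a check added after seeing the data, the same count was 2 higher with the processed signals and in the deposited table, each with 1 lower, 8 higher and 0 lower with median centring, and 0 in either direction with the adjusted p of the methods' t-test, where 4 were higher at an unadjusted p under 0.05 (*Mt1*, *Hmox1*, *Txnrd1* and *Srxn1*). The share of all tested genes was computed for the main processing with loess only (30.6% higher and 23.7% lower). The counts under the other settings have no such share beside them, so they are not read as a result about these genes. Over all tested genes, 1327 higher and 190 lower became 281 and 17 at 2-fold, 864 and 128 with the methods' t-test, 1202 and 168 with the mean of probes, 2823 and 65 with median centring, 1945 and 777 with the processed signals, and 2131 and 617 in the deposited table. The share of higher genes among them was 87.48%, against 97.75% with median centring and 71.45% with the processed signals. The causes of these differences were not tested, apart from the higher threshold. No paired analysis was possible because both arrays share 1 control pool. Signal limits *Slc7a11*, which was not well above background. The 95% intervals of *Nfe2l2*, *Gclc* and *Txnrd1* include 0 after loess, and with median centring their adjusted p by limma was 2.37e-06, 0.0101 and 1.03e-07. Tests with median centring are against 0, where the median of all tested genes was 0.18. *Gclc*, at 0.19, lay 0.015 above that median.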
